A study of Homo sapiens with 30 samples.

Results

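GATA transcription factors bind the DNA sequence that gives the family its name through zinc fingers and set cell fate in several tissues. GATA3 is a defining factor of luminal breast cells, GATA2 is best known from blood stem cells and endothelium, and GATA4 and GATA6 from heart, gut and other endoderm-derived organs. Bone morphogenetic protein 7 (BMP7) is a secreted ligand that signals through serine-threonine kinase receptors and SMAD proteins to change transcription. The members described here, GATA2, GATA3, GATA4 and GATA6, were chosen by gene name, and every probe that the array files name for them was taken, which gave 6 of 41000 probes. They are 4 of the 17849 gene symbols on the array. The choice was not independent of the data, since GATA2 was noticed because its ratio rises with time, so the GATA2 response is given as a description without a test.

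The data come from 30 two-colour arrays of 5 human breast cancer cell lines, HCC1954, MDA-MB-231, MDA-MB-361, T-47D and ZR-75-30. Each array set cells given recombinant human BMP7 (50 ng/ml, Cy5) against cells given vehicle (Cy3) for the same time, and each line had 1 array at 30 min and at 1, 3, 6, 12 and 24 h. All cells had been seeded 24 h before treatment, and every sample pools 3 cultures. A value at 1 time point therefore has no replicate and no array had its dyes swapped. MDA-MB-361, T-47D and ZR-75-30 are commonly described as luminal, HCC1954 as hormone receptor-negative and MDA-MB-231 as basal-like with mesenchymal features, and each line stands for 1 tumour. MDA-MB-231 and T-47D were grown in less serum than the other lines, so culture medium and cell line cannot be told apart. On each array, 53.8% to 68.3% of probes were well above background in both channels, and the arrays lay on 13 slides scanned in 2 batches, the second with 6 arrays. The second batch held HCC1954, MDA-MB-231 and ZR-75-30 at 30 min, MDA-MB-231 and ZR-75-30 at 6 h, and T-47D at 3 h. At 30 min, scan batch and time can therefore not be told apart in the first 3 of these. The array of ZR-75-30 at 6 h stood apart, with 4044 probes changed at least 2-fold against 2092 on the next array and a median of 543, and results that rest on it are marked as such or also given without it. Of 8 measured epithelial markers, 7 in MDA-MB-231 and all 8 in the other lines were well above background in every vehicle sample. So were some markers of other cell types. Of 8 mesenchymal markers it was from 3 in T-47D to 5 in MDA-MB-231. Of 7 leukocyte markers it was from 2 in MDA-MB-361 to 4 in HCC1954, and of 5 endothelial markers from 0 in T-47D to 2 in HCC1954. Of the 8 epithelial markers, 1 was called with time, where 1.01% of all probes were called lower. It was CDH1 (E-cadherin), with a ratio lower late than in the first hour by limma (-0.27, adjusted p = 0.0402) in 5 of 5 lines. The call held under 6 of 22 alternatives. CLDN4 (0.25), CLDN7 (0.17) and KRT8 (0.16) went the other way in 5 of 5 lines without a call. Without ZR-75-30 at 6 h, 1 epithelial marker was called higher beside CDH1. The part of CDH1 in the results below was not tested.

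GATA2 was read by 2 probes, one at chr3:129682136-129682195 and one whose match spans chr3:129682795-129683354, both on the minus strand of hg18. The first, called the main GATA2 probe below, was well above background in both channels on 30 of 30 arrays, and the second, dimmer one on 23. GATA3 had 1 probe at chr10:8155728-8155787 and GATA6 1 probe at chr18:18035791-18035850, both on the plus strand and well above background in both channels on all 30 arrays. The exon that each probe lies in was not looked up, since no annotation of that build was used here. Of the GATA4 probes, one was well above background on 0 arrays and the other on 1 array, MDA-MB-231 at 12 h, where the spot carries an outlier mark. GATA4 was therefore not detectable above background, and its ratios are not read.

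The sequences before the transcription starts are shown because BMP7 acts through SMAD proteins, which bind short DNA motifs. Whether these motifs bear on the ratios of the members was not tested. RefSeq (GRCh38.p14) gives 2 starts for GATA2, 6 for GATA3 and 1 for GATA6 in the table used here. The 250 bases before both GATA2 starts, before 1 of the GATA3 starts and before the GATA6 start follow, with capitals for the SMAD box GTCTG, the GC-rich SMAD element GGCGCC and the GATA site (the letters GATA with A or T before and A or G after), each searched on both strands.
GATA2 upstream start, chr3:128493202-128493451, minus strand: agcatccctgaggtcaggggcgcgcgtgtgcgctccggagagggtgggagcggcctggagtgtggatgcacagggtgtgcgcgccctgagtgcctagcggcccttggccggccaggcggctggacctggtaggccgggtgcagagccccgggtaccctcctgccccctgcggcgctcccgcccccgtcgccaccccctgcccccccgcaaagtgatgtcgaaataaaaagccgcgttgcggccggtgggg
GATA2 downstream start, chr3:128488531-128488780, minus strand: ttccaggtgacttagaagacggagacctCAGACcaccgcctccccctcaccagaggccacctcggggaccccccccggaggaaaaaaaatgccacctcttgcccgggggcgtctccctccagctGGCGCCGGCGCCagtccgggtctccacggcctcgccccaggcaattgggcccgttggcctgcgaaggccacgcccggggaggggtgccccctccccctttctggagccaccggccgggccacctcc
GATA3, chr10:8054438-8054687, plus strand: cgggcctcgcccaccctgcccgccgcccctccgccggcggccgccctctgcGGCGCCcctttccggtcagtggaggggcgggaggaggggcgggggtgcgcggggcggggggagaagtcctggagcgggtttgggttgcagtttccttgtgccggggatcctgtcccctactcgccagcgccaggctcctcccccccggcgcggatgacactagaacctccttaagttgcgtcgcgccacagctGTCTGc
GATA6, chr18:22169339-22169588, plus strand: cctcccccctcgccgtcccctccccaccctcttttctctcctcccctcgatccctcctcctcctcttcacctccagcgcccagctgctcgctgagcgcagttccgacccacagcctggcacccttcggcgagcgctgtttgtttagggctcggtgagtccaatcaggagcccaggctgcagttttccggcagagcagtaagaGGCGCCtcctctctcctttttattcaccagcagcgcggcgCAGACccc
The upstream GATA2 start had none of these letters within 250 bases, whereas the downstream start had 2 copies of GGCGCC side by side and 1 GTCTG box, read as CAGAC on the strand shown. The GATA3 start shown and the GATA6 start had 1 GGCGCC and 1 GTCTG box each, and this GATA3 start was printed because it was the one of 6 with both motifs. Over the 6 GATA3 starts, 3 held GTCTG and 3 held GGCGCC. No GATA site was found before any of the 9 starts. Among all 34943 promoters of the table, 38% held GTCTG, 16.4% GGCGCC and 22.4% one of the GATA sites within the same 250 bases, and a match is a description of the letters and not a binding site.

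GATA2, which keeps blood progenitors undifferentiated and is also made in some epithelia, was higher in BMP7-treated than in vehicle-treated cells from 3 h on in 4 of the 5 lines. In the order 30 min, 1, 3, 6, 12 and 24 h, the log2 ratio of the main GATA2 probe in ZR-75-30 was -0.50, 0.02, 0.91, 0.21, 0.83 and 0.68. In T-47D it was -0.15, -0.13, 0.70, 0.66, 0.54 and 0.50 at the same times. Both lines moved from ratios near or below 0 within the first hour to ratios of 0.50 or more at 3, 12 and 24 h, and the lowest late value of ZR-75-30 was on its array at 6 h, which stands apart.
In MDA-MB-361 the ratio of the main GATA2 probe was above 0 throughout, at 0.40, 0.16, 0.84, 0.36, 0.87 and 0.58 from 30 min to 24 h. In MDA-MB-231 it was -0.01, -0.09, 0.15, 0.15, 0.35 and 0.51, with its highest value at the last time. In HCC1954 it was -0.47, 0.03, -0.02, 0.08, -0.14 and -0.09. All values of HCC1954 after 30 min lay within 0.14 of 0, and the low value at 30 min stood alone.

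**Figure D1:**
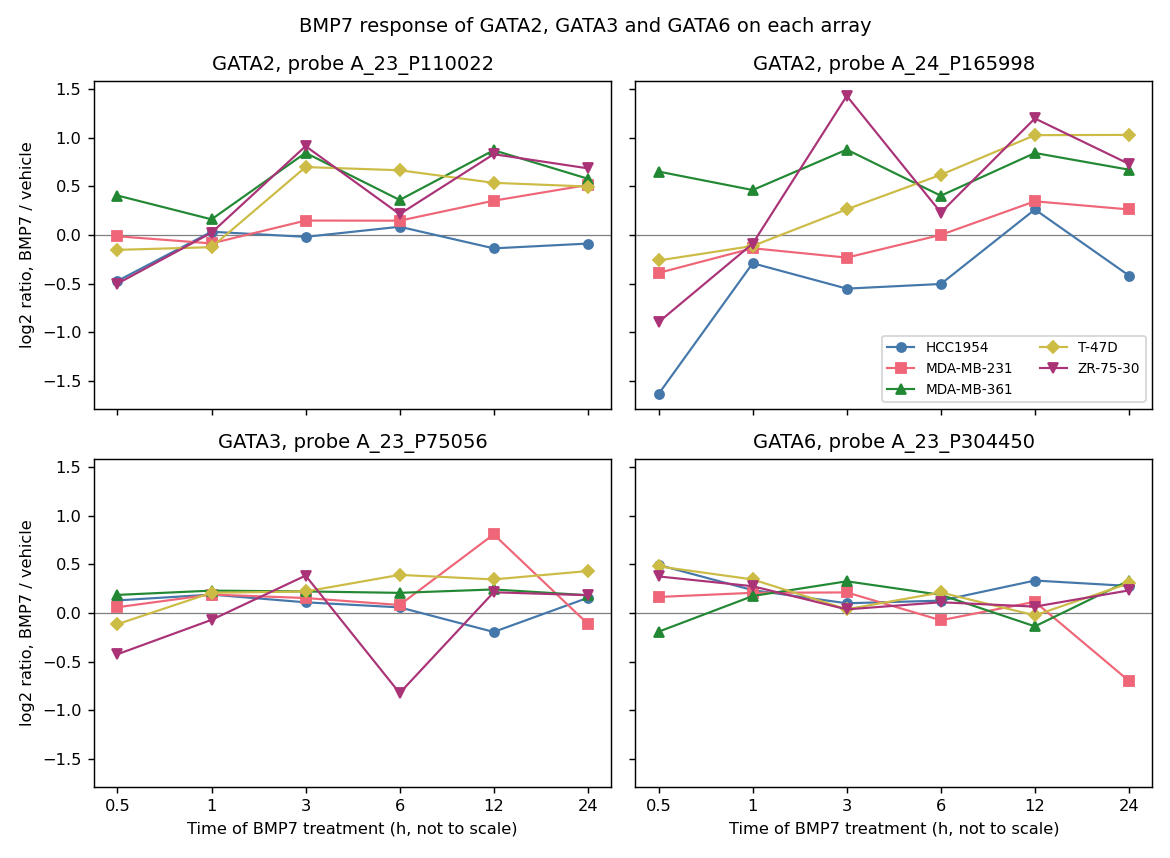
Log2 ratio of BMP7 over vehicle (y axis) against time of treatment (x axis, time points evenly spaced) for both GATA2 probes and the GATA3 and GATA6 probes, with 1 coloured line and symbol per cell line and 1 array per point. HCC1954 has the lowest GATA2 ratio at 3, 6, 12 and 24 h on both probes, and the lines are also spread at 30 min, while most GATA3 and GATA6 points lie between 0 and 0.5.

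The late samples, 3 to 24 h, were set against the samples of the first hour, 30 min and 1 h, within each line. For the main GATA2 probe the difference of the log2 ratio, late minus first hour, was 0.90 in ZR-75-30, 0.74 in T-47D, 0.38 in MDA-MB-361, 0.34 in MDA-MB-231 and 0.18 in HCC1954. It was above 0 in 5 of 5 lines, with a mean of 0.51 and an SD between lines of 0.30. In HCC1954 the sign rested on 1 array, since without 30 min its difference was -0.07. In MDA-MB-231, T-47D and ZR-75-30 each of the 4 late ratios lay above both ratios of the first hour, and in HCC1954 and MDA-MB-361 they overlapped. This restates the rise that GATA2 was noticed for, and how many of all probes do so was not counted. In MDA-MB-231 and ZR-75-30 the array at 30 min was also of the second scan batch. The mean late ratio was a fold of 1.58 in ZR-75-30, 1.58 in MDA-MB-361, 1.51 in T-47D, 1.22 in MDA-MB-231 and 0.97 in HCC1954, so no line reached 2-fold on this probe, and it passed 2-fold on 0 of 30 arrays.

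On the dimmer GATA2 probe HCC1954 also had the lowest mean late ratio, a fold of 0.81, and ZR-75-30 had the highest, 1.86, whereas on the main probe ZR-75-30 was level with MDA-MB-361. The dimmer probe changed at least 2-fold in either direction on 5 arrays. One of them, HCC1954 at 30 min, was a decrease, with the probe well above background in neither channel. Another, T-47D at 24 h, was an increase with the probe not well above background in vehicle. Its difference, late minus first hour, was 1.39 in ZR-75-30, 0.92 in T-47D, 0.66 in HCC1954, 0.36 in MDA-MB-231 and 0.14 in MDA-MB-361, with a mean of 0.69 and an SD between lines of 0.49. In HCC1954 this difference stood on a ratio of -1.63 at 30 min, and the late ratios there were -0.55, -0.50, 0.26 and -0.42. The probes thus differed most in HCC1954 and ZR-75-30, and the probe with the stronger signal gave the smaller spread between lines. Over the 30 arrays their ratios had a Pearson r of 0.88, as a description of probes that share a transcript and arrays that fall by line. Without the ZR-75-30 array at 6 h the mean change of the main probe was 0.53, without ZR-75-30 altogether 0.41, and within the first scan batch alone 0.46. The background correction moved it more, to 0.30 on the main probe under normexp and median scaling, and on the dimmer probe from 0.69 to 0.31 under that setting and 0.27 under normexp and loess.

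A ratio can rise because the treated or the vehicle-treated cells change with time, so the channels were also read alone, on the log2 level after normalization between arrays. In ZR-75-30 the BMP7 channel of the main GATA2 probe was higher by 0.63 and the vehicle channel changed by -0.27 from the first hour to the late samples. In MDA-MB-361 the changes were 0.53 with BMP7 and 0.15 with vehicle. In MDA-MB-361 the BMP7 channel held the larger change whichever array was left out, whereas in ZR-75-30 without 30 min the changes were 0.21 with BMP7 and -0.43 with vehicle.
In T-47D the GATA2 level changed by 0.26 with BMP7 and by -0.48 with vehicle, and in MDA-MB-231 by 0.10 and -0.24, but single arrays decided how the change was divided. Without the T-47D array at 3 h, of the second scan batch, the changes were 0.42 with BMP7 and -0.28 with vehicle, and in MDA-MB-231 without 24 h they were 0.16 and -0.10. In HCC1954 the changes were 0.08 and -0.09, and without 30 min -0.40 and -0.32. Over the 5 lines the BMP7 channel of the main probe was higher late in 5 of 5 (mean 0.32 ± 0.14, SE of the limma fit), whereas the vehicle channel changed by -0.19 ± 0.12 (SE) and was higher late in 1 line. The dimmer probe divided the change otherwise, with 0.27 in the BMP7 channel, higher late in 4 lines, and -0.43 in the vehicle channel.

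**Figure D2:**
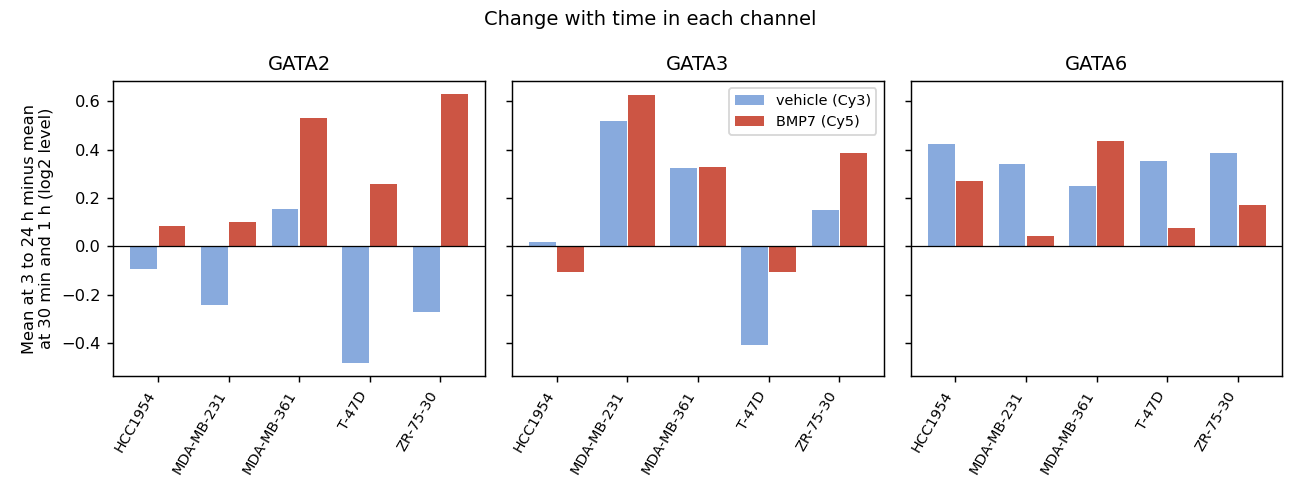
Mean log2 level of 4 late arrays (3 to 24 h) minus mean of 2 first-hour arrays (30 min and 1 h), on the y axis, for each cell line on the x axis, in the vehicle (blue bars) and the BMP7 channel (red bars) of the main GATA2, the GATA3 and the GATA6 probe. The main GATA2 probe is higher late in the BMP7 channel of every line, and GATA6 is higher late in the vehicle channel of every line.

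GATA3, the factor that maintains the luminal fate of mammary epithelium, had smaller ratios than GATA2. In T-47D the log2 ratio from 30 min to 24 h was -0.12, 0.21, 0.22, 0.39, 0.34 and 0.43, with the values at 1 h and 3 h nearly level. In MDA-MB-361 all 6 values lay between 0.18 and 0.24, a mean of 0.21 ± 0.02 (SD, n = 6 time points). MDA-MB-361 thus had the steadiest GATA3 ratio of the 5 lines, and with no dye swap a constant dye effect and a steady ratio cannot be told apart.
In HCC1954 the GATA3 ratios were 0.13, 0.19, 0.11, 0.06, -0.20 and 0.16 from 30 min to 24 h. In MDA-MB-231 they were 0.06, 0.19, 0.15, 0.08, 0.81 and -0.11, and in ZR-75-30 -0.42, -0.07, 0.38, -0.82, 0.21 and 0.18. Single arrays set the range in both of these lines, namely 12 h in MDA-MB-231 and 6 h in ZR-75-30. Late minus first hour, the GATA3 ratio changed by 0.10 ± 0.10 (SE of the limma fit over arrays) and was higher in 4 of 5 lines, which did not pass the test (limma adjusted p = 0.658). Its sign depended on the scaling, with -0.11 under normexp background correction and median scaling, and without ZR-75-30 at 6 h it was 0.15. The mean GATA3 ratio over all times was 0.13 ± 0.14 (SD, n = 5 lines) and above 0 in 4 of 5 lines, with a limma adjusted p of 0.376, in a test that called only 0.00976% of all probes. The line below 0 was ZR-75-30, and its lowest ratio, -0.82, came from the array at 6 h that stands apart.

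GATA6, which is made in endoderm and also in some carcinomas, was slightly above vehicle at most times. Its log2 ratios from 30 min to 24 h were 0.49, 0.23, 0.10, 0.13, 0.33 and 0.28 in HCC1954. They were 0.16, 0.21, 0.21, -0.08, 0.11 and -0.70 in MDA-MB-231, where the value at 24 h was the lowest of GATA6 on any array. The other 4 lines had ratios between 0.23 and 0.33 at 24 h.
In MDA-MB-361 the GATA6 ratios were -0.19, 0.17, 0.33, 0.19, -0.14 and 0.33, in T-47D 0.48, 0.34, 0.04, 0.21, -0.03 and 0.30, and in ZR-75-30 0.38, 0.27, 0.04, 0.11, 0.06 and 0.23. They were above 0 on 25 of 30 arrays, and the mean over lines was 0.15 ± 0.11 (SD, n = 5 lines). This did not pass the test (limma adjusted p = 0.225). The GATA6 ratio changed by -0.15 ± 0.08 (SE) from the first hour to the late samples, in the opposite direction to GATA2, with only MDA-MB-361 above 0 and without a call (limma adjusted p = 0.333).
No difference between lines in the change with time passed the test for GATA3 or GATA6 (limma F test of line by time, adjusted p = 1 for both), and 0.0537% of all probes were called in that test. The largest gap between the changes of any pair of lines was 0.43 for GATA3 and 0.48 for GATA6 on the log2 scale. Without the array at 6 h the GATA3 change of ZR-75-30 was 0.51 in place of 0.24, so that the GATA3 gap was wider.

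Read by channel, GATA6 moved the same way in vehicle-treated cells of all lines. In the vehicle channel its level was higher late than in the first hour in 5 of 5 lines, by 0.42 in HCC1954, 0.39 in ZR-75-30, 0.35 in T-47D, 0.34 in MDA-MB-231 and 0.25 in MDA-MB-361. In MDA-MB-231 the late vehicle samples overlapped with those of the first hour. In the other lines they lay above them, and how many of all probes do so was not counted. The mean was 0.35 ± 0.07 (SE), and it missed the threshold (limma adjusted p = 0.0831) in a test with 4 calls, 0.00976% of 41000 probes. The BMP7 channel of GATA6 was also higher late in 5 of 5 lines, by a mean of 0.20 ± 0.09 (SE). GATA3 changed in the vehicle channel by 0.12 ± 0.13 (SE) and was higher late in 4 lines, the exception being T-47D with -0.41 (limma adjusted p = 0.885).

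The members differed far more between cell lines than with treatment. In vehicle-treated cells GATA3 was highest in ZR-75-30 and T-47D, lower in MDA-MB-361 and HCC1954 and lowest in MDA-MB-231. Its log2 level in 6 vehicle samples ran from 12.63 over a median of 13.18 to 13.59 in ZR-75-30 and from 12.26 over 12.99 to 13.29 in T-47D. In MDA-MB-361 it ran from 10.83 over 11.11 to 11.40, in HCC1954 from 8.78 over 9.12 to 9.55 and in MDA-MB-231 from 6.80 over 7.47 to 7.82. Of these groups only ZR-75-30 and T-47D overlapped.
The gap between the ends of the GATA3 order, ZR-75-30 and MDA-MB-231, was 5.72 ± 0.19 (SE), or 52.9-fold (limma adjusted p = 9.68e-21). ZR-75-30 and T-47D differed by 0.21 ± 0.19 (SE), which was not a call (adjusted p = 0.408). The other 9 of 10 pairs of lines passed the test, where 46.6% of all 409990 comparisons of a probe in a pair of lines did and 73.5% of probes passed the F test over lines. The 6 vehicle samples of a line are different times and not replicate cultures of a time, so these p-values measure the spread over time within a line. Arrays cannot tell fewer cells that make a transcript from less transcript per cell.

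**Figure D3:**
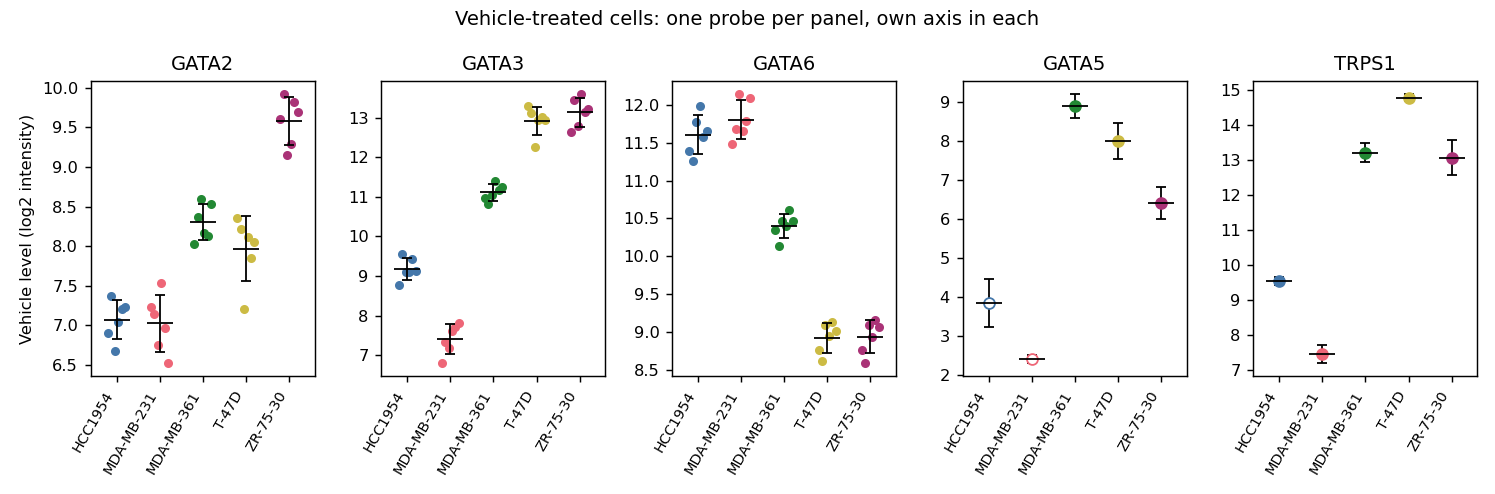
Log2 vehicle level (y axis, its own scale in each panel) by cell line (x axis) for the main GATA2, the GATA3 and the GATA6 probe, with 1 point per time point, and for GATA5 and TRPS1 as means. Bars give the mean and SD of 6 samples, and open circles mark lines where the probe was well above background in no vehicle sample. GATA3 and GATA2 are lowest in HCC1954 and MDA-MB-231, where GATA6 is highest.

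GATA6 had the opposite order. Its vehicle level ran from 11.48 over a median of 11.73 to 12.14 in MDA-MB-231 and from 11.26 over 11.62 to 11.99 in HCC1954. It ran from 10.13 over 10.43 to 10.61 in MDA-MB-361, from 8.62 over 8.98 to 9.13 in T-47D and from 8.59 over 9.004 to 9.16 in ZR-75-30. MDA-MB-231 overlapped with HCC1954 and T-47D with ZR-75-30, and MDA-MB-361 lay between them without overlap.
MDA-MB-231 exceeded T-47D in GATA6 by 2.88 ± 0.14 (SE), or 7.36-fold (limma adjusted p = 7.54e-17). The 2 pairs without a call were HCC1954 against MDA-MB-231, at -0.20 ± 0.14 (SE, adjusted p = 0.260), and T-47D against ZR-75-30, at -0.01 ± 0.14 (SE, adjusted p = 0.961). The lines with the highest GATA3 level were thus those with the lowest GATA6 level, although a level of one probe cannot be set against that of another.

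GATA2 had yet another order, with ZR-75-30 above all other lines. On the main GATA2 probe the vehicle level ran from 9.15 over a median of 9.65 to 9.92 in ZR-75-30, from 8.03 over 8.27 to 8.60 in MDA-MB-361 and from 7.20 over 8.08 to 8.36 in T-47D. It ran from 6.68 over 7.13 to 7.36 in HCC1954 and from 6.52 over 7.06 to 7.53 in MDA-MB-231. ZR-75-30 overlapped with no other line, and the T-47D sample at 3 h, which was scanned in the second batch, reached down into the range of HCC1954 and MDA-MB-231.
ZR-75-30 exceeded MDA-MB-231 in GATA2 by 2.56 ± 0.18 (SE), or 5.88-fold (limma adjusted p = 1.11e-12), and MDA-MB-361 by 1.28 ± 0.18 (SE, adjusted p = 1.02e-06). Neither MDA-MB-361 and T-47D, at a difference of 0.34 ± 0.18 (SE, adjusted p = 0.140), nor HCC1954 and MDA-MB-231, at 0.05 ± 0.18 (SE, adjusted p = 0.880), were told apart. The dimmer GATA2 probe also placed ZR-75-30 above every other line and called 6 of 10 pairs against 8 on the main probe. It was well above background in only 4 of 6 vehicle samples of MDA-MB-231, so the size of its gap there depended on the processing, at 2.85 over all samples, 2.42 among spots well above background and 1.08 with normexp and quantile normalization. On the main probe the 3 lines with the higher vehicle levels of GATA2 were the 3 lines with the highest mean late ratios, while HCC1954 and MDA-MB-231, level in vehicle, had late ratios of -0.04 and 0.29. The change, late minus first hour, did not keep this order. On the main probe MDA-MB-361 (0.38) was close to MDA-MB-231 (0.34). On the dimmer probe MDA-MB-361 was the lowest line (0.14), below HCC1954 (0.66). A link between level and ratio was not tested.

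No call was made with time among the remaining genes with GATA-type zinc fingers. Of 10 measured (of 11 listed), 0 passed the test late minus first hour in either direction, where 1.43% of all probes were called higher and 1.01% lower by limma, so that so few genes would seldom hold a call. The largest changes among genes well above background on at least 24 arrays were -0.09 ± 0.11 (SE, adjusted p = 0.710) for TRPS1, a GATA-type repressor of the breast and of hair and bone, and 0.06 ± 0.07 (SE, adjusted p = 0.722) for MTA2, a subunit of the NuRD chromatin complex. Between lines, 9 of the 10 passed the F test on the vehicle level, where 73.5% of all probes did.
TRPS1 had the widest range, with a vehicle level of 14.79 ± 0.10 (SD, n = 6) in T-47D, 13.22 ± 0.27 in MDA-MB-361, 13.08 ± 0.50 in ZR-75-30, 9.55 ± 0.12 in HCC1954 and 7.46 ± 0.25 in MDA-MB-231. GATA5, known from heart and gut, was well above background in all 6 vehicle samples of MDA-MB-361 (8.88 ± 0.30), T-47D (7.997 ± 0.45) and ZR-75-30 (6.42 ± 0.41), and in 0 of 6 in HCC1954 and MDA-MB-231. It was at least 23.5-fold higher in MDA-MB-361 than in MDA-MB-231 (limma adjusted p = 1.11e-19), at least 12.7-fold higher in T-47D and at least 4.25-fold higher in ZR-75-30. GATAD1 and RERE followed, with a range between lines of 2.14 and 1.53, and GATA1, the erythroid member, was well above background in 0 vehicle samples.

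The order of GATA3 was set beside that of luminal genes, with the lines commonly described as luminal against HCC1954 and MDA-MB-231. GATA3 has this order but does not single out this split. Its level differed by -1.93 for HCC1954 minus MDA-MB-361 and by -1.82 for MDA-MB-361 minus T-47D. The split follows the luminal label, so the order of luminal genes is not independent of it. The mean vehicle level was higher in each of MDA-MB-361, T-47D and ZR-75-30 than in both HCC1954 and MDA-MB-231 for 11 of 17 luminal genes listed with GATA3, among them ESR1 (the oestrogen receptor), FOXA1 (its pioneer factor) and XBP1, where 14.6% of all probes had this order. The reverse order, that of GATA6, was found for 0 of the 17 and for 11.9% of all probes. TFF3, a secreted trefoil peptide, had the widest range, from 16.72 in MDA-MB-361 to 5.37 in HCC1954. FOXA1 ran from 15.40 in MDA-MB-361 to 4.50 in MDA-MB-231, where 3 of 6 vehicle samples were well above background. In HCC1954 FOXA1 was at 13.34, much nearer to the 14.20 of T-47D than to MDA-MB-231.
CA12, a carbonic anhydrase of luminal cells, ran from 15.16 in T-47D to 5.001 in HCC1954, with 4 of 6 samples there above background, and AGR2, a protein disulfide isomerase, from 15.04 in T-47D to 5.09 in MDA-MB-231, with 5 of 6. All 17 passed the F test on vehicle level, where 73.5% of all probes did. Late minus first hour, 0 of 17 passed, where 1.43% of all probes were called higher and 1.01% lower. There, the largest change among bright probes was 0.29 ± 0.17 (SE, limma adjusted p = 0.377) for ELF5.

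By likeness over 30 vehicle samples, which fall into groups by line, the probes nearest to GATA3 among 11824 genes were ANXA9 (Pearson r = 0.97), ZMAT4, OLFM1, ENSA, CLDN3 and SLC16A6 (each 0.96), and GRB14, CADM1, DYNC2I2 and ARF3 (each 0.95). ANXA9, an annexin, had mean vehicle levels of 12.51 in T-47D and 11.58 in ZR-75-30 against 6.43 in HCC1954. By the log2 ratio over 30 arrays the genes nearest to the main GATA2 probe were SLC35E1, DIP2A and ANKZF1 (each r = 0.91), ATRIP (0.90), YARS1 and TUBGCP2 (each 0.89), and TPCN2, VPS11, PISD and RETREG2 (each 0.88). Their change, late minus first hour, was 0.22 to 0.39 and thus smaller than the 0.51 of GATA2, and none of them is one of the listed BMP targets or GATA cofactors.

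Cofactors carry out much of what GATA proteins do. Of 15 listed, all measured, 1 passed the test late minus first hour and was higher, and 0 were lower, beside 1.43% and 1.01% of all probes. It was ZFPM1, which encodes FOG1, a zinc finger partner of GATA factors, at 0.79 ± 0.17 (SE, limma adjusted p = 0.0346), higher in 5 of 5 lines. This call held under 8 of 22 alternatives and was lost without ZR-75-30 (0.51, adjusted p = 0.260), without T-47D (0.69, adjusted p = 0.208) and within the first scan batch (0.63, adjusted p = 0.252). Its change was 1.91 in ZR-75-30, 1.17 in T-47D, 0.38 in MDA-MB-231, 0.34 in HCC1954 and 0.14 in MDA-MB-361, so T-47D and ZR-75-30 were the highest, as for GATA2.
The median change of the 15 cofactors was 0.09, beside 0 for all probes. The mean late ratio of ZFPM1 was above vehicle in ZR-75-30 (a fold of 2.24) and MDA-MB-361 (1.49) and below it in HCC1954 (0.74), T-47D (0.85) and MDA-MB-231 (0.94), so in T-47D the ratio moved towards vehicle and not above it. On the vehicle level ZFPM2, which encodes FOG2, was well above background in T-47D alone, at least 14.7-fold higher there than in ZR-75-30 (limma adjusted p = 6.73e-23). LMO2, an adaptor of the blood GATA complex, was highest in HCC1954, at 8.45, and was well above background in 0 of 6 vehicle samples of MDA-MB-231 and of MDA-MB-361. The other cofactors with a wide range were LMO1, from 7.13 in MDA-MB-361 to 3.93 in MDA-MB-231 (3 of 6 samples well above background), and LMO4, a breast LIM adaptor, from 12.22 in T-47D to 9.60 in ZR-75-30. LMO1 was well above background in 0 of 6 vehicle samples of T-47D and 2 of 6 of ZR-75-30, so the low end of its range lies near background.

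**Figure D4:**
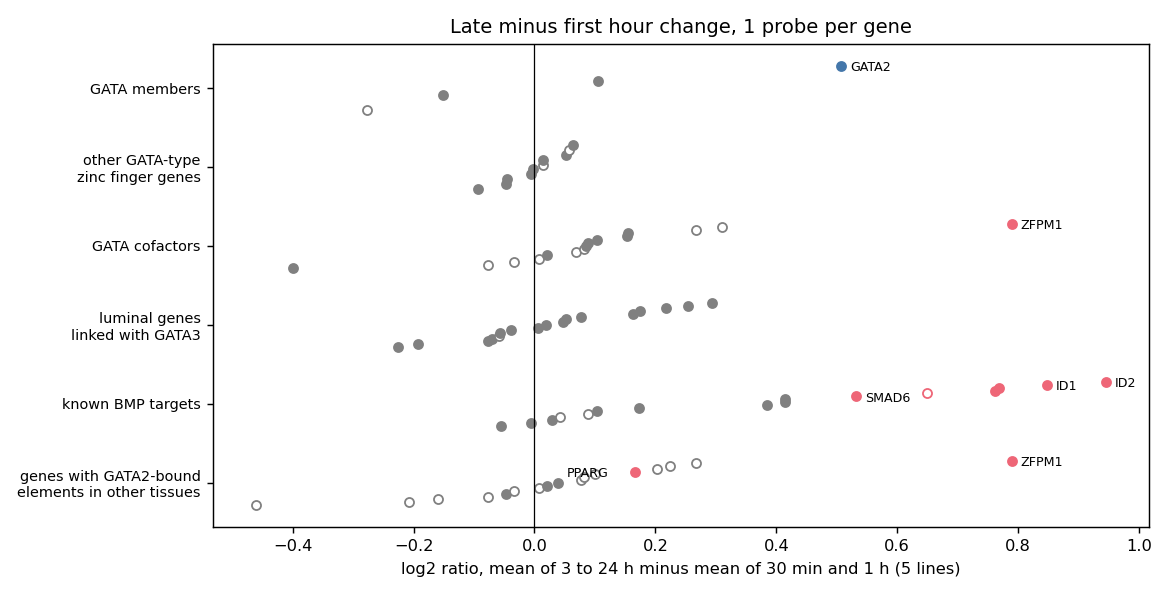
Change of the log2 ratio, mean of 3 to 24 h minus mean of 30 min and 1 h over 5 lines (x axis), for the gene lists on the y axis, with 1 point per gene read from its probe brightest in vehicle. Red points passed the limma test, GATA2 is blue and was not tested, and open points were well above background in both channels on fewer than 24 arrays. GATA2 at 0.51 lies near SMAD6 at 0.53, and ZFPM1 at 0.79 is the one red point among the cofactors.

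For scale, 6 of 16 known BMP targets were called higher late and 0 lower, with a median change of 0.40, beside 1.43% of all probes called higher. The count was 6 without the ZR-75-30 array at 6 h, 1 without T-47D, without 12 h, within the first scan batch or with slide as a random block, and 0 without ZR-75-30, without 30 min, with cell lines as units or under normexp and median scaling. These included ID2 at 0.95 ± 0.13 (SE, limma adjusted p = 0.00107), ID1 at 0.85 ± 0.18 and ID3 at 0.77 ± 0.12, inhibitors of basic helix-loop-helix factors, and SMAD9, a BMP-regulated SMAD, at 0.76 ± 0.13. GATA2 at 0.51 on its main probe was thus below ID1, ID2 and ID3, and above ID4, which was at 0.41 ± 0.15 (SE) and not called (limma adjusted p = 0.117). In MDA-MB-231, ID4 was well above background in 0 vehicle samples, and the dimmer GATA2 probe was at 0.69. This place of GATA2 is a description, since GATA2 was noticed for its rise. Of 17 measured genes with known GATA2-bound elements in blood, endothelium or fat, 2 were called higher and 0 lower, with a median of 0.04. They were ZFPM1, already counted above, and PPARG, the adipocyte nuclear receptor, at 0.17 ± 0.04 (SE, limma adjusted p = 0.0395) and higher in 5 of 5 lines, although in T-47D it was well above background in 0 vehicle samples. The PPARG call held under 5 of 22 alternatives, and under normexp and median scaling its value was -0.05.
All of these calls treat the arrays of a line as separate samples. With the change of each line as 1 unit, 0 probes passed the threshold by limma, while 6526 had an unadjusted p under 0.05, and with scan batch as a term 67 probes were called in place of 1002.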

How the data were processed

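Each of the 30 arrays was a 2-colour Agilent expression array with BMP7 RNA in Cy5 and vehicle RNA in Cy3. Per the file headers, the authors made the values with Feature Extraction 9.5.1.1, probes placed on hg18: a log10 ratio of the dye-normalized, background-subtracted channels and processed intensity values per channel. The deposited value table of the series, on a log2 scale, served as an alternative. Here the log10 ratios were turned to log2, outlier-marked spots left out, spots of a probe averaged and each array centred on its median. Vehicle and BMP7 levels were log2 of the processed intensity, after quantile normalization of the mean of both channels between arrays (limma's Aquantile). limma 3.58.1 (R 4.3.3) was fitted to all probes with Benjamini-Hochberg adjustment at 0.05: late minus first hour with line as a term, the mean ratio over lines, line by time, and vehicle level between lines. There are no replicate arrays, so p-values measure the spread over times and lines. The scripts were tested on simulated data.

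Alternatives changed the background correction, normalization, filters, scan batch, slide and samples. Members and gene lists were chosen with earlier results of these data known. A gene was read from its probe brightest in vehicle (for GATA2, the main probe), and the text names the members, up to 4 called genes a list with the largest change (otherwise the 2 largest) and the 10 genes nearest in pattern; GATA1, XBP1 and SMAD6 were named after their values were seen. Of 41000 probes, 24321 were named by accession, 2482 by symbol and 984 by synonym through RefSeq, and 13213 were unnamed. "At least" folds set the bright mean against the lowest signal well above background on each array of the dim line. The number of arrays limits the precision. The values of 1 gene that the naming rule would give are not reported here.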

Additional observations from a re-analysis of the deposited data

Results flagged for a closer look

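Of 64 groups of values tested for a sample far from the rest, of which chance marks about 1 in 20, the following had one. For the main GATA2 probe, HCC1954 at 24 h, with a log2 ratio of -0.089, stood below the other lines at that time. For the dimmer GATA2 probe, MDA-MB-361 at 1 h stood above the other lines with a log2 ratio of 0.46, and the vehicle level of MDA-MB-231 at 6 h, 2.52, stood below its other times. GATA3 had the most such values. Its log2 ratio in HCC1954 was lowest at 12 h, at -0.20, and in MDA-MB-231 highest at 12 h, at 0.81. ZR-75-30 stood below the other lines in GATA3 at 1 h, with -0.071, and at 6 h, with -0.82, and the GATA3 vehicle level of T-47D was lowest at 3 h, at 12.26. The GATA6 log2 ratio of MDA-MB-231 at 24 h, -0.70, stood apart both from its other times and from the other lines at 24 h.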

How the results depend on the processing

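The limits lie mainly in the change with time, which 1002 probes passed. That count was 1915 among spots well above background in both channels, 2 under normexp and median scaling, 234 with 30 min alone as early, 67 with scan batch as a term, 3 in the first scan batch, 4 with slide as a random block and 0 with cell lines as units (limma, 6526 at an unadjusted p under 0.05). Leaving out a line or time gave 2 to 1048, with 3 without ZR-75-30, 4 without T-47D, 56 without MDA-MB-231, 250 without HCC1954, 2 without 30 min, 234 without 1 h, 70 without 3 h, 11 without 6 h and 4 without 12 h. The mean ratio was called for 4 probes, and for 7 with outlier-marked spots kept, 164 among bright spots, 261 in the series' value table, 127 with normexp and loess, 3146 with normexp and median scaling and 46 without ZR-75-30 at 6 h. Leaving out a line gave 0 to 0 (limma, 4452 to 6389 at an unadjusted p under 0.05). Line differences were called for 22, and for 10 among bright spots, 0 with normexp and median scaling (limma, 1643 at an unadjusted p under 0.05), 40 without ZR-75-30 at 6 h and 17 to 26 without a line. The vehicle change with time was called for 4, and for 2 to 4 without a line (2 without MDA-MB-361, 2 without ZR-75-30). The causes were not tested. Normexp with median scaling moved the median of the arrays by 0.21 (log2) before centring. Of the member values, 750 kept direction and call, 8 became calls and 4 reversed: GATA3 late minus first hour to -0.11 under normexp and median scaling, main GATA2 probe HCC1954 minus MDA-MB-231 to -0.086 without 24 h (0.15 without 6 h, the other end of the range), GATA6 T-47D minus ZR-75-30 to 0.019 with 75th percentile scaling, and the dimmer GATA2 probe MDA-MB-361 minus T-47D to -0.092 among spots well above background. None of these 4 differences was a call. The change of GATA2 with time has no test, so these counts cannot show a lost call for it and do not speak for its stability. Its size on the main probe ran from 0.30 to 0.58 over the processing settings. With a line or time left out it ran from 0.41 to 0.59. The first scan batch alone for vehicle levels and the median over lines (0.38 for the main GATA2 probe) were chosen after seeing the data. How the main GATA2 probe's change in T-47D divides between the channels without its 3 h array was also computed after seeing the data. No paired analysis was possible because no replicate numbers pair samples of different lines or times, beyond the pairing of BMP7 and vehicle on each array and the line term of the fits.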
